A study of Saccharomyces cerevisiae with 16 samples.

Results

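The genes described are the galactose regulon of budding yeast (Saccharomyces cerevisiae): GAL1 (YBR020W), GAL10 (YBR019C), GAL7 (YBR018C), GAL2 (YLR081W), GAL3 (YDR009W), GAL4 (YPL248C), GAL80 (YML051W) and GCY1 (YOR120W). They were chosen by symbol as a known regulon, not by their measured values, and all 8 were found among the 5315 named genes of the arrays. Each was read by 1 probe, printed in duplicate spots. No genome build is named in the deposited tables, and the genes are given by locus tag and chromosome without coordinates: GAL7, GAL10 and GAL1 lie side by side on chromosome II, GAL4 on XVI, GAL80 on XIII, GAL2 on XII, GAL3 on IV and GCY1 on XV.

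The study measured newly made RNA on 16 dual-colour arrays, of 2 strains sampled at 4 times, so that each of the 8 groups has 2 arrays. Mot1 is an ATPase that strips the TATA-binding protein off promoters. In Mot1-aa it is fused to FRB, yEGFP and 3V5, and rapamycin ties it to the ribosomal protein Rpl13A so that it leaves the nucleus. WT-aa is the parent without the FRB tag. Both strains share the anchor and the background: RPL13A-FKBP12-NAT, tor1-1, a deletion of FPR1, MET15, his3-1, leu2, lys2 and ura3, in BY4742 cells of mating type alpha. Cultures in synthetic complete (SC) medium, with 2% glucose as the sugar, were treated with rapamycin at 7.5 µM for 10, 20 or 30 min or harvested untreated at 0 min. They took up 5 mM 4-thiouracil (4tU), a label of new RNA, during the last 6 min. The groups are therefore Mot1-aa at 0, 10, 20 and 30 min and WT-aa at 0, 10, 20 and 30 min. The captured 4tU RNA of each culture was set against a common reference pooled from 4tU RNA of several WT-aa cultures without rapamycin. Each group holds 2 independent cultures per the labels, with opposite dyes: culture 1 has its sample in Cy3, culture 2 in Cy5. No culture grew on galactose and no protein was measured. The MOT1 gene stays in place in this system, so its own probe does not check the depletion.

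In yeast the galactose genes are a textbook switch. Gal4 is the activator that binds upstream of the regulon, Gal80 holds Gal4 silent, and Gal3 relieves Gal80 when galactose is present. Gal2 carries galactose into the cell, and Gal1, Gal7 and Gal10 (kinase, uridylyltransferase and epimerase of the Leloir pathway) turn it into glucose-1-phosphate. In glucose the repressor Mig1 acts on GAL1 and on GAL4 itself, so the enzyme genes are shut while GAL80, GAL3 and GCY1 keep a basal level. GCY1 codes for an aldo-keto reductase that acts as a glycerol dehydrogenase and is a Gal4 target outside galactose breakdown. GAL1 and GAL10 share one divergent promoter.

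GAL4, the activator gene, fell and GCY1 rose after rapamycin in Mot1-aa relative to WT-aa, and the other 6 genes did not pass the test of that effect at any time. The depletion effect subtracts the WT-aa change since 0 min from the Mot1-aa change since 0 min, on the log2 scale. At 30 min it was -0.97 for GAL4 (SE 0.14, 1.96-fold lower on ratios that the background offset compresses, adjusted p = 0.00143) and 0.68 for GCY1 (SE 0.10, 1.60-fold higher, adjusted p = 0.0016). GAL1, GAL7 and GAL10, the genes of the pathway enzymes, gave signals close to the spot background in both strains at every time. Adjusted p-values are from limma, with 2 arrays per group, over all 5315 genes of a comparison, and a gene is said to have risen, fallen or passed where they are under 0.05. Loess sets the typical gene of each array to 0, so a value of 0 means that a gene moved with the typical gene. Scaled on the external control spots instead, where the median of all genes was 0.27, both effects at 30 min kept their direction but did not pass (-0.76 for GAL4, adjusted p = 0.235, and 0.95 for GCY1, adjusted p = 0.252).

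The signal over background limits what each probe can show. A spot was counted as above background where its signal over its local background was higher than on 99% of that array's negative spots in the same channel. GAL1 lay 1.19 to 1.48 times over background in the sample channel (median 1.38) and was above the negative spots on 12 of 16 arrays. GAL7 lay 1.12 to 1.28 times over (median 1.18) and passed on 8 arrays. GAL10 lay 1.04 to 1.23 times over (median 1.16) and passed on 6. All 3 enzyme genes were thus at or near the level of spots with no target in cells grown on glucose, and the 2 Mot1-aa 30 min arrays were among those where none of them passed. GAL2, the galactose permease, lay 7.02 to 16.4 times over background (median 13.2). GAL3, the galactose sensor, lay 3.14 to 6.93 times over (median 4.97), and GAL80, the inhibitor, 16.2 to 45.0 times over (median 31.3). GCY1 lay 7.78 to 23.7 times over (median 19.1). These 4 passed on all 16 arrays. GAL4 lay 1.83 to 5.80 times over background (median 4.30) and passed on 15 arrays. The exception was Mot1-aa 30 min culture 2, where GAL4 stood at 1.83 against a limit of 1.85, the highest limit of any array. With a limit of 95% of the negative spots, GAL4 passed on all 16 arrays and GAL1, GAL7 and GAL10 on 15, 13 and 13. Signals of different probes are not levels of different transcripts, since probes differ in how brightly they bind.

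**Figure D1:**
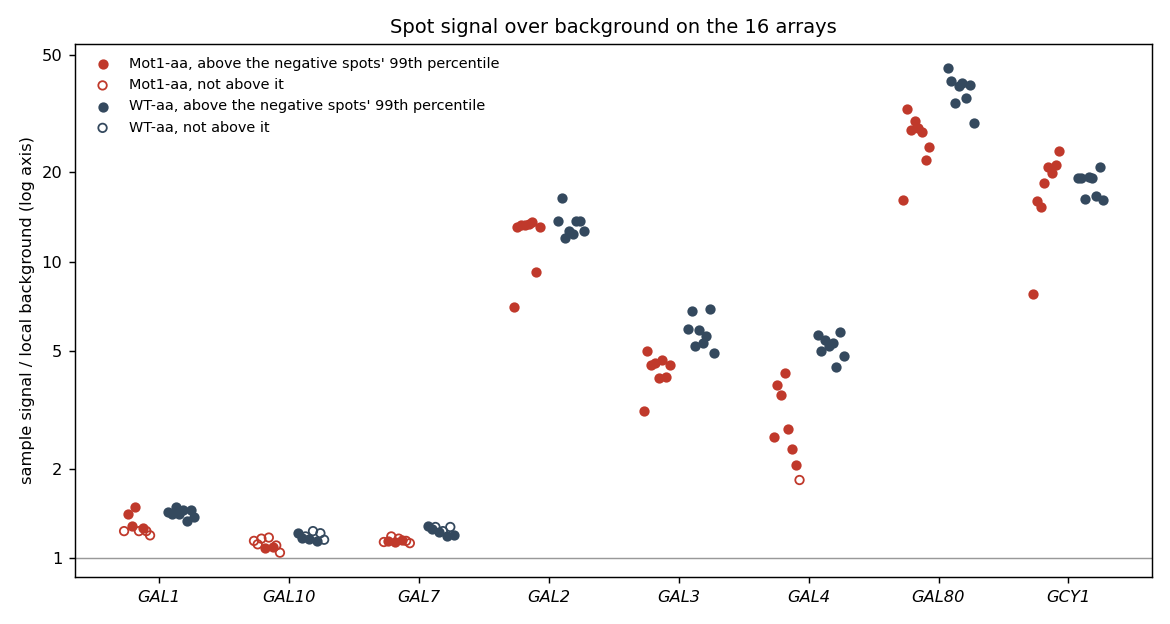
Sample signal divided by local background (log axis) for each of the 8 galactose regulon genes, 1 point per array, Mot1-aa left of WT-aa. Filled points exceed 99% of their array's negative spots and open points do not. GAL1, GAL10 and GAL7 stay below 1.5 and hold most of the open points, while GAL2, GAL3, GAL80 and GCY1 have none.

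Background correction adds an offset of 50 to every signal, which compresses the ratios of dim spots. At the median signal of each probe, a 2-fold higher signal reads as 0.97 for GAL80, 0.95 for GCY1, 0.94 for GAL2, 0.84 for GAL3 and 0.81 for GAL4 on the log2 scale. The same 2-fold rise reads as 0.35 for GAL1, 0.22 for GAL7 and 0.19 for GAL10. A 2-fold fall reads as -0.68 for GAL4 but as -0.21 for GAL1, -0.12 for GAL7 and -0.11 for GAL10. Small log2 values of the enzyme genes are therefore not a measure of steady synthesis.

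Across the whole series, the median gene lay 12.9 times over background on Mot1-aa 0 min culture 1 and 24.8 to 35.6 times on the other 15 arrays. That dim array is part of the Mot1-aa baseline of every depletion effect. Duplicate spots differed with an SD of 0.03 to 0.04 on the log2 scale. The alpha-specific genes STE3 and SAG1 lay 62.3 to 325 times over background and the a-specific genes MFA1, MFA2, STE2 and BAR1 1.46 to 8.23 times over, in cells labelled as mating type alpha. LEU2 and URA3, mutated in both strains per the labels and looked up after the values were seen, lay 1.17 to 1.53 and 1.30 to 1.80 times over. They were above the negative spots on 12 and 15 of 16 arrays. HIS3 and LYS2, also mutated per the labels, lay 2.61 to 7.6 and 2.5 to 6.29 times over. Both were above the negative spots on all 16 arrays. The arrays read RNA of whole cultures, so fewer cells making a transcript and less of it per cell cannot be told apart.

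Before rapamycin the strains did not differ detectably in any galactose gene. In the comparison of Mot1-aa with WT-aa at 0 min, 0 of the 8 genes passed in limma, against 2.69% of all genes. An unadjusted p under 0.05 was found for 0 of the 8, against 778 of all 5315 genes. The differences ran from -0.19 for GAL4 (95% interval -0.42 to 0.03) to 0.12 for GAL2 (-0.04 to 0.28), and the lowest adjusted p was 0.344, for GAL3.

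GAL4 fell in Mot1-aa at 20 and 30 min and had no called change in WT-aa. Its log2 ratios to the reference in cultures 1 and 2 of Mot1-aa were -0.02 and -0.15 at 0 min, -0.25 and 0.02 at 10 min, -0.53 and -0.73 at 20 min, and -0.86 and -0.96 at 30 min. In WT-aa they were 0.17 and 0.03 at 0 min, 0.25 and 0.22 at 10 min, 0.19 and 0.05 at 20 min, and 0.22 and 0.28 at 30 min. All 4 Mot1-aa arrays at 20 and 30 min lay below the other 12 arrays. Ordered by level, Mot1-aa at 30 min was lowest, then Mot1-aa at 20 min, and these 2 groups did not overlap. The Mot1-aa arrays at 10 and 0 min overlapped each other. The WT-aa groups at 0 and 20 min overlapped just above them, and those at 10 and 30 min overlapped at the top. The GAL4 sample signal in cultures 1 and 2 of Mot1-aa was 2.56 and 3.83 times background at 0 min, 3.55 and 4.19 at 10 min, 2.72 and 2.33 at 20 min, and 2.05 and 1.83 at 30 min, against 5.80 and 4.81 times in WT-aa at 30 min. The value of 2.56 is from the dim 0 min array and lies below that of the same culture number at 20 min, so the raw signal alone does not give the course over time. The reference channel of the same probe stayed between 3.60 and 5.21 on all 16 arrays.

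The Mot1-aa change of GAL4 from 0 min was -0.03 at 10 min (adjusted p = 0.94), -0.54 at 20 min (SE 0.10, adjusted p = 0.003) and -0.83 at 30 min (SE 0.10, adjusted p = 0.000121). With no offset in the background correction, which compresses dim spots, these changes were -0.90 at 20 min and -1.45 at 30 min. Scaled on the external control spots, where the medians of all genes were 0.40 and 0.36, they did not pass (-0.32, adjusted p = 0.235, and -0.57, adjusted p = 0.0539). The WT-aa change was 0.13, 0.01 and 0.14 at 10, 20 and 30 min, and none passed. The depletion effect was -0.16 at 10 min (adjusted p = 1), -0.56 at 20 min (SE 0.14, adjusted p = 0.0407) and -0.97 at 30 min (95% interval -1.29 to -0.65). In the depletion effect at 30 min, 0.207% of all genes had a value at or below that of GAL4. The call at 30 min held whichever array was left out (-1.03 to -0.91, adjusted p 5.38e-05 to 0.0111). That at 20 min was lost when any array other than the 2 from Mot1-aa at 10 min was left out (-0.64 to -0.47, adjusted p up to 0.186). With no offset the effect was -0.93 at 20 min and -1.65 at 30 min, and 1 of the 2 Mot1-aa 30 min arrays had GAL4 below the background limit.

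GCY1, the reductase gene, rose over the same 30 min. Its log2 ratios in cultures 1 and 2 of Mot1-aa were -0.25 and -0.07 at 0 min, -0.21 and 0.03 at 10 min, 0.24 and 0.36 at 20 min, and 0.69 and 0.79 at 30 min. In WT-aa they were -0.20 and -0.14 at 0 min, -0.09 and -0.06 at 10 min, -0.08 and -0.07 at 20 min, and -0.05 and 0.16 at 30 min. The Mot1-aa arrays at 30 min were the highest, those at 20 min came next without overlap, and all the others lay at or below 0.16. The 4 Mot1-aa arrays at 0 and 10 min lay between -0.25 and 0.03, a range that held all WT-aa arrays at 0, 10 and 20 min. GCY1 lay 21.2 and 23.7 times over background in Mot1-aa at 30 min, against 20.8 and 16.1 times in WT-aa at 30 min. In Mot1-aa at 0 min it lay 7.78 and 16.0 times over, with the low value on the dim array, so the raw signal alone does not show the change and the ratio to the reference is needed.

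The Mot1-aa change of GCY1 was 0.07 at 10 min (adjusted p = 0.725), 0.46 at 20 min (SE 0.07, adjusted p = 0.0011) and 0.90 at 30 min (SE 0.07, 1.87-fold, adjusted p = 7.98e-06). The WT-aa change was 0.09, 0.09 and 0.22 at 10, 20 and 30 min, and none passed. The depletion effect was -0.02 at 10 min, and 0.37 at 20 min just missed the threshold (SE 0.10, adjusted p = 0.0541). Without either Mot1-aa 10 min array the value at 20 min passed (lowest adjusted p 0.0182). At 30 min the depletion effect of 0.68 had a 95% interval of 0.45 to 0.91 and lay at the 92.5th percentile of all genes. It held whichever array was left out (0.63 to 0.73, adjusted p 3e-04 to 0.0115).

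**Figure D2:**
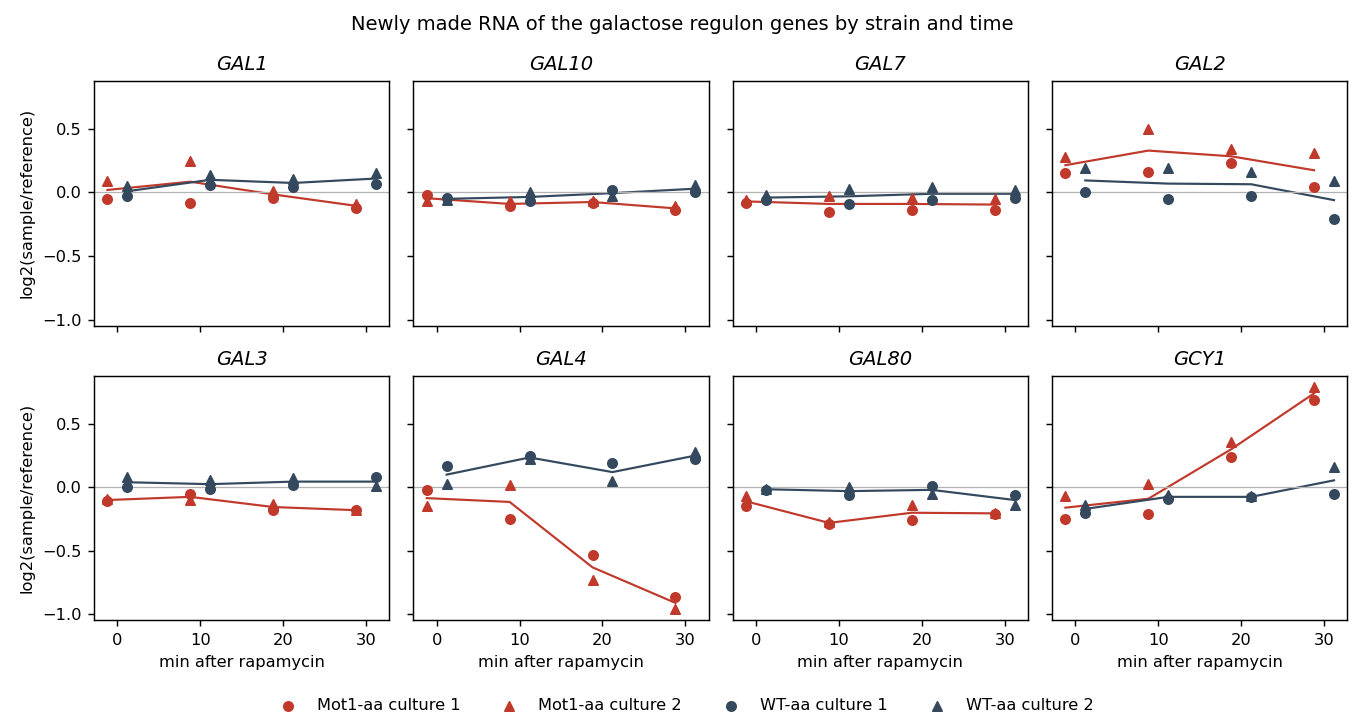
Log2 ratio of sample to reference for the 8 galactose regulon genes against minutes after rapamycin (0, 10, 20 and 30), with Mot1-aa in red and WT-aa in dark grey. Circles are culture 1, triangles culture 2, and lines join the means of both. GAL4 runs down to -0.96 and GCY1 up to 0.79 in Mot1-aa, while the WT-aa points of every gene stay between -0.21 and 0.28.

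GAL80 and GAL3, the other regulators of the switch, had no called change over time. GAL80 ratios in cultures 1 and 2 of Mot1-aa were -0.15 and -0.07 at 0 min, -0.29 and -0.27 at 10 min, -0.26 and -0.14 at 20 min, and -0.21 and -0.20 at 30 min. In WT-aa, GAL80 lay between -0.14 and 0.01 on all 8 arrays. Its depletion effect was -0.16, -0.09 and -0.01 at 10, 20 and 30 min, with a 95% interval of -0.22 to 0.20 at 30 min, and none passed. This probe was bright enough for a 2-fold change in either direction to fall well outside that interval. GAL3 ratios lay between -0.18 and -0.05 on the 8 Mot1-aa arrays and between -0.01 and 0.08 on the 8 WT-aa arrays. The strains thus did not overlap, but how many of all genes separate in this way was not counted. Before rapamycin the difference between the strains was -0.14 (95% interval -0.28 to 0.00), and the depletion effect at 30 min was -0.09 (-0.29 to 0.10, adjusted p = 0.496).

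GAL2, the permease gene, likewise had no called change over time within either strain. Its ratios lay between 0.04 and 0.50 in Mot1-aa and between -0.21 and 0.19 in WT-aa. Culture 2 was above culture 1 in all 8 groups, by 0.30 at most except for 0.34 in Mot1-aa at 10 min, and the dye term of the fit takes out the part of this that the groups share. The depletion effect of GAL2 was 0.13, 0.10 and 0.12 at 10, 20 and 30 min (95% interval at 30 min -0.10 to 0.34), and none passed.

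The enzyme genes GAL1, GAL10 and GAL7 showed no called depletion effect. GAL1 ratios ran from -0.12 to 0.25 in Mot1-aa and from -0.03 to 0.15 in WT-aa, and its depletion effect was -0.03, -0.10 and -0.22 at 10, 20 and 30 min (adjusted p = 0.169 at 30 min). Without either Mot1-aa 10 min array the effect at 30 min passed (lowest adjusted p 0.0395). The GAL1 spot was not above background on either Mot1-aa 30 min array, so the sample has only an upper limit there. GAL10 ran from -0.14 to -0.02 in Mot1-aa and from -0.07 to 0.06 in WT-aa, with an effect of -0.16 at 30 min (95% interval -0.35 to 0.03). GAL7 ran from -0.15 to -0.03 in Mot1-aa and from -0.09 to 0.04 in WT-aa, with an effect of -0.05 at 30 min (-0.23 to 0.13). Neither was above background on either Mot1-aa 30 min array, and GAL10 on neither WT-aa 30 min array, so these values rest on spots with only an upper limit and give no bound on a fold change. With no offset the GAL10 effect was -0.80 and passed (adjusted p = 0.0359), on the same spots.

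**Figure D3:**
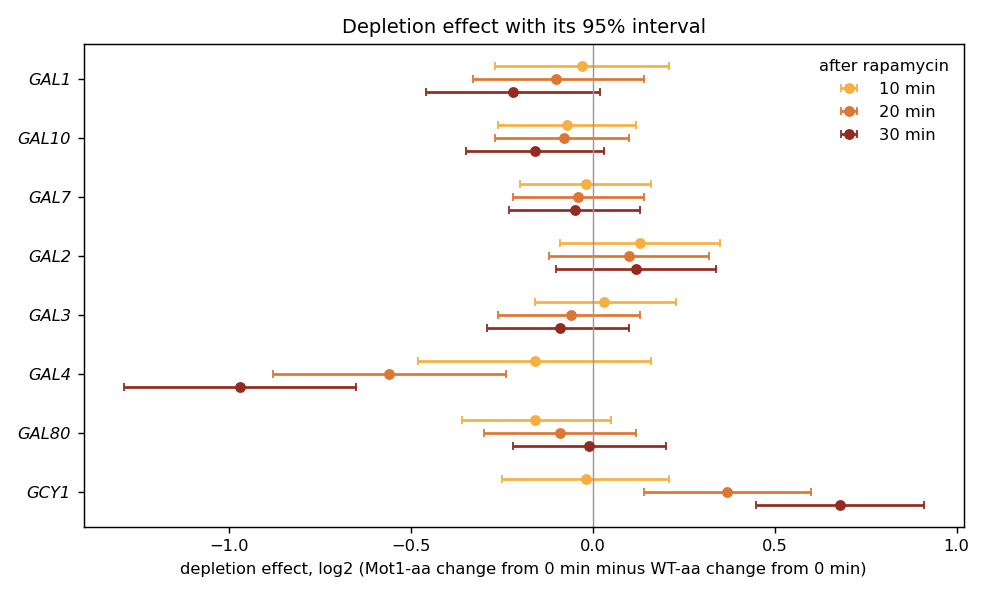
Depletion effect (log2, Mot1-aa change less WT-aa change, both since 0 min) of the 8 galactose regulon genes at 10, 20 and 30 min, with 95% intervals from limma. GAL4 moves left from -0.16 to -0.97 and GCY1 right to 0.68, and the intervals of the other 6 genes include 0 at every time.

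Read against all genes, the count of galactose genes that passed was not high. The depletion effect passed for 0 of 8 genes at 10 min, against 0% of all 5315 genes by limma. At that time 0 of the 8 and 225 of all genes had an unadjusted p under 0.05. It passed for 1 of 8 genes at 20 min (GAL4, lower), against 8.09% of all genes, and for 2 of 8 at 30 min (GCY1 higher, GAL4 lower), against 21.1%. The median effect of the 8 genes was -0.02, -0.07 and -0.07 at 10, 20 and 30 min, against 0.00, 0.01 and 0.01 for all genes. The change from 0 min within Mot1-aa passed for 0, 2 and 2 of the 8 genes at 10, 20 and 30 min, against 3.46%, 23.9% and 41.9% of all genes. The change within WT-aa passed for 0 of 8 at each time in limma, against 0.414%, 0.113% and 0.395%. Of these WT-aa changes, 2 genes had an unadjusted p under 0.05, both at 30 min: GCY1 (0.22) and GAL2 (-0.16). At that time 461 of all 5315 genes did. The comparisons share the 0 min arrays and are not independent of each other.

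The direct difference between Mot1-aa and WT-aa at 30 min passed for 5 of the 8 genes, 2 higher and 3 lower, against 49.1% of all genes. GAL4 was lower in Mot1-aa by a log2 difference of -1.16 (SE 0.10, adjusted p = 8.53e-06), or -1.88 with no offset, and only 1 of its 2 Mot1-aa arrays there was above background. GCY1 was higher by 0.69 (SE 0.07, 1.61-fold, adjusted p = 3.28e-05), a call lost with scaling on the external control spots (0.35, adjusted p = 0.314). GAL3 stood at -0.18 and -0.18 in Mot1-aa, against 0.08 and 0.01 in WT-aa, a difference of -0.23 (adjusted p = 0.0116). GAL2 stood at 0.04 and 0.31 in Mot1-aa, against -0.21 and 0.09 in WT-aa, a difference of 0.24 (adjusted p = 0.0175). The GAL2 groups overlapped, although Mot1-aa was higher within each culture number, and the difference was -0.06 when arrays were scaled on the external control spots, where the median of all genes was -0.30. GAL1 stood at -0.12 and -0.09 in Mot1-aa, against 0.07 and 0.15 in WT-aa, a difference of -0.21 (adjusted p = 0.0407) that was 0.07 with median centring. No fold is given for GAL1, because the lowest signal that counts as above background on the Mot1-aa 30 min arrays was higher than the GAL1 signal in WT-aa. The calls of GAL2 and GAL3 were lost without either Mot1-aa 30 min array or WT-aa 30 min culture 1 (adjusted p up to 0.13 for GAL2 and 0.112 for GAL3). The call of GAL1 was lost without any array other than the 4 of Mot1-aa at 10 min and WT-aa at 0 min (up to 0.214).

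The 8 genes did not all vary together across the arrays. How often pairs drawn from all genes reach the values of r given here was not computed. Over the 16 log2 ratios centred within each dye orientation, Pearson's r between GAL4 and GCY1 was -0.832. Every pair among GAL1, GAL3, GAL4, GAL7, GAL10 and GAL80 had a positive r, from 0.267 (GAL1 and GAL80) to 0.843 (GAL3 and GAL4). GAL7 went with GAL10 (r = 0.812). GAL2 and GCY1 each had a negative r with all of these genes, such as -0.753 for GAL2 and GAL3, and 0.161 with each other. GAL80 and GAL4, inhibitor and activator, had r = 0.595. These 16 points are 8 groups in 2 cultures measured against a common reference, so they are not independent. The ratios of GAL1, GAL7 and GAL10 come from spots near background.

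The genes most like GAL4 and GCY1, picked from all other named genes, had a higher r with them than any galactose gene. The pool searched was far larger than the galactose genes, so a higher best r in it is no result in itself. The 3 genes most like GAL4 over the 16 centred ratios were BUG1 (YDL099W, r = 0.992), OKP1 (YGR179C, r = 0.981) and POM34 (YLR018C, r = 0.98), with depletion effects of -0.57, -0.51 and -0.45 at 30 min. Those most like GCY1 were MDR1 (YGR100W, r = 0.964), YGL081W (r = 0.956) and YEN1 (YER041W, r = 0.955), with effects of 0.37, 0.26 and 0.23. GAL3 was most like VMA13 (r = 0.971), GAL1 like NIC96 (r = 0.943), GAL7 like EMP46 (r = 0.921), GAL80 like SCP1 (r = 0.918), GAL10 like FMP30 (r = 0.916) and GAL2 like CCS1 (r = 0.915). HXT2, a glucose transporter gene, was the next most like GAL2 (r = 0.904).

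Of 5 other genes reported as Gal4 targets (MTH1, PCL10, FUR4, LAP3 and PGM2), PGM2 rose and the others did not pass. PGM2 codes for the major phosphoglucomutase, which takes up the product of the Leloir pathway. Its ratios in cultures 1 and 2 of Mot1-aa were -0.37 and -0.05 at 0 min, 0.45 and 0.32 at 10 min, 0.89 and 1.09 at 20 min, and 1.48 and 1.68 at 30 min. In WT-aa they were -0.74 and -0.45 at 0 min, -0.18 and 0.07 at 10 min, -0.22 and -0.09 at 20 min, and -0.23 and -0.13 at 30 min. Every Mot1-aa array after 0 min lay above every WT-aa array. How many of all genes separate in this way was not counted. The strain difference of PGM2 at 0 min was 0.38 (adjusted p = 0.074) and its depletion effect at 10 min was 0.06, and neither passed. The depletion effect of PGM2 was 0.76 at 20 min (adjusted p = 0.0092) and 1.38 at 30 min (SE 0.14, 2.60-fold, adjusted p = 2e-04), larger than that of any galactose gene. LAP3 (0.22, adjusted p = 0.129), PCL10 (0.21, adjusted p = 0.193), MTH1 (0.17, adjusted p = 0.439) and FUR4 (-0.04, adjusted p = 0.872) did not pass. The median of these 5 genes was 0.21, against 0.01 for all genes, and 1 of 5 passed, against 21.1%. MTH1 was higher in Mot1-aa already at 0 min (0.65, adjusted p = 0.00618).

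Of the 4 genes beside the GAL7-GAL10-GAL1 cluster, 0 passed in the depletion effect at 30 min, against 21.1% of all genes. KAP104, a nuclear import receptor gene next to GAL7, had a depletion effect of 0.10 at 30 min, and FUR4, the uracil permease gene next to GAL1, had -0.04. Further along, POA1 had -0.18 and CHS3, a chitin synthase gene, 0.20. In the direct strain difference at 30 min, KAP104 (0.23, adjusted p = 0.0115) and CHS3 (0.25, adjusted p = 0.0149) were higher in Mot1-aa. FUR4 and POA1 did not pass there, where 49.1% of all genes did. CHS3 also rose within Mot1-aa by 30 min (0.32, adjusted p = 0.00572), against 41.9% of all genes called. KAP104, FUR4 and POA1 did not pass in that change.

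Of 19 regulators of glucose repression, 3 rose and none fell in the depletion effect at 30 min, against 721 higher and 399 lower of 5315 genes (21.1% called). Their median was 0.01, equal to that of all genes. The 3 are transcriptional repressors. NRG1 had 0.79 (1.73-fold, adjusted p = 0.00143), NRG2 had 0.70 (1.62-fold, adjusted p = 0.00636) and MIG2 had 0.49 (1.40-fold, adjusted p = 0.00938). MIG1, the repressor of GAL4 and GAL1 in glucose, had 0.00 (95% interval -0.25 to 0.24). Among those that did not pass, CYC8 had 0.47, SNF3 -0.46 and HXK2 0.41 (adjusted p = 0.2, 0.0664 and 0.0779). The strains already differed before rapamycin in 3 of these 19 genes, against 2.69% of all genes: MIG2 (0.51) and NRG1 (0.44) were higher and NRG2 (-0.51) was lower in Mot1-aa at 0 min. In the direct strain difference at 30 min, where 49.1% of all genes passed, NRG2 did not pass (0.19, adjusted p = 0.142). MIG2 (1.00) and NRG1 (1.23) were higher in Mot1-aa there.

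Of 21 other genes that glucose represses, 5 rose and 2 fell at 30 min, against the same 21.1% called of all genes (median 0.07, against 0.01). Only 17 of the 21 were above background on all 16 arrays, and the rest can show little. The glucose-phosphorylating enzyme genes HXK1 and GLK1 had 1.08 (2.11-fold, adjusted p = 0.018) and 0.77 (1.71-fold, adjusted p = 0.0419). SIP4, an activator gene of gluconeogenesis, had 0.46, ADH2, alcohol dehydrogenase, 0.41, and IDP2, cytosolic isocitrate dehydrogenase, 0.32 (adjusted p = 0.00979, 0.0165 and 0.0385). CAT8, another activator gene of gluconeogenesis, fell with -0.72 (1.65-fold lower, adjusted p = 0.00336), and MAL11, a maltose permease gene, with -0.34 (adjusted p = 0.0262). CAT8, SIP4 and MAL11 lay 2.32 to 5.93, 1.75 to 3.12 and 2.09 to 4.66 times over background. The offset therefore compresses their values too. CAT8 ratios were -0.73 and -0.93 in Mot1-aa at 30 min, against -0.07 and -0.20 in WT-aa at 30 min, the next largest called fall after GAL4 among the genes of these lists. MAL31 (0.59), ACS1 (-0.39) and SUC2 (0.38), the invertase gene, did not pass. HXK1 was higher in Mot1-aa already at 0 min (0.94, adjusted p = 0.0282), and CYB2, named after its value was seen, was lower there (-0.54, adjusted p = 0.03). The calls of PGM2, NRG1, NRG2, MIG2, SIP4 and CAT8 held whichever array was left out, and none of the calls in these lists or of PGM2 held with scaling on the external control spots. HXK1 lost its call without Mot1-aa 0 min culture 2, either Mot1-aa 30 min array or WT-aa 30 min culture 2 (adjusted p up to 0.083). ADH2 lost its call without culture 1 at 0 min of either strain or any 30 min array (up to 0.0697), and MAL11 without culture 2 at 0 min of either strain or any 30 min array (up to 0.0937). GLK1 kept its call only without a Mot1-aa 10 min array or WT-aa 0 min culture 1 (otherwise up to 0.148), and IDP2 only without these or culture 2 of Mot1-aa at 0 or 30 min (otherwise up to 0.155).

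**Figure D4:**
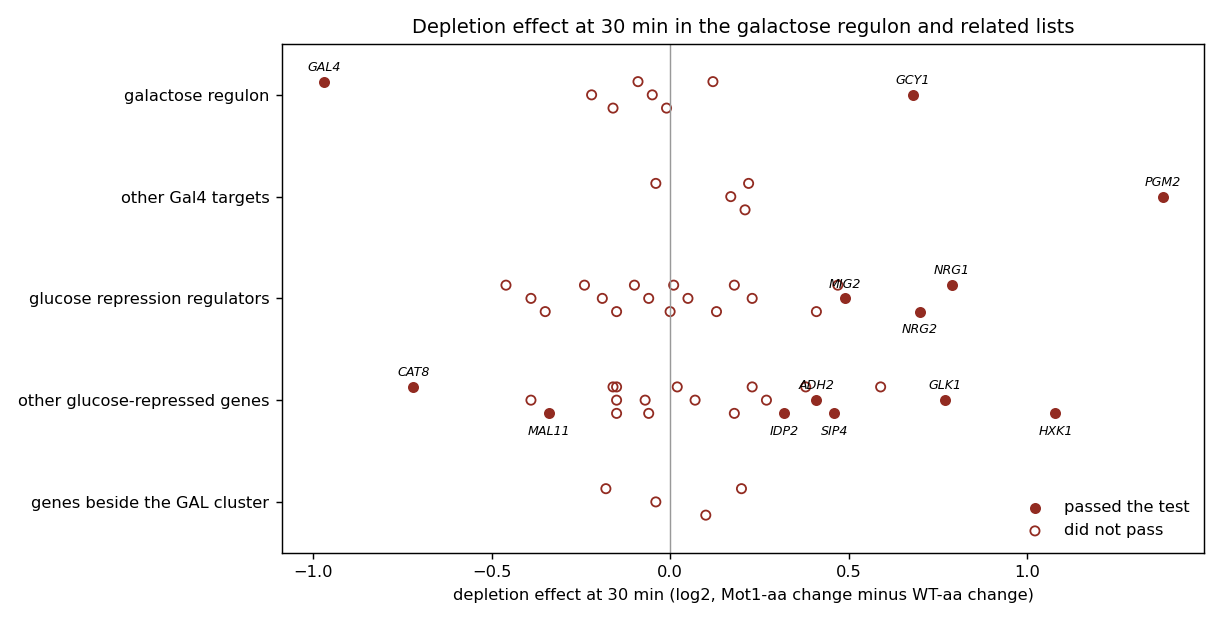
Depletion effect at 30 min (log2, Mot1-aa change minus WT-aa change) for the galactose regulon and 4 related gene lists, 1 point per gene. Filled points passed the test (adjusted p under 0.05) and are named; open points did not. PGM2 at 1.38 lies farthest right and GAL4 at -0.97 farthest left.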

How the data were processed

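Scanner tables were deposited for 16 arrays. Per the file headers, they give linear, unsubtracted intensity: the mean and median of each spot and the median of its surroundings, per channel. The deposited series table holds the authors' normalized log2 ratio of Cy5 over Cy3; how it was normalized is not stated in any source used. It served as an alternative, turned to sample over reference by the labelled dyes.

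With limma 3.58.1 in R 4.3.3, spot means were corrected by normexp (offset 50), normalized by loess over gene spots within arrays, turned to log2(sample/reference), and averaged over duplicate spots and, for 11 genes, over 2 probes. Of 5315 names, 5255 were current in the R64 gene table, 54 were synonyms and 6 were kept. One model per gene (lmFit, eBayes, two-sided) had a coefficient for each of the 8 groups and 1 for dye orientation, which is also the culture number; 7 residual degrees of freedom were joined by 3.54 prior ones. The cultures are independent per the labels; no source used says whether the times of a strain share a culture, and arrays were treated as independent. Adjusted p-values are Benjamini-Hochberg over all genes within each of 11 comparisons. The scripts were tested on simulated data. The reference channel was the more alike across arrays in both orientations (mean r 0.993 against 0.979 and 0.997 against 0.985 for the sample), with the dyes as labelled. Depth on an array is signal over background, and 2 arrays per group limit the precision.

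The genes named were all 8 galactose genes in every comparison, the 3 genes most correlated with each, and from each related list those that passed at 30 min and up to 3 of the largest others. Members, lists and this rule were chosen with earlier results of these data known. Alternatives were no dye term, no background correction, offset 0, median centring, scaling on external control spots, the authors' values, only genes above background on every array, array weights, spot medians, and leaving out each array. Figures were drawn with matplotlib 3.10.9 in Python 3.11.15.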

Additional observations from a re-analysis of the deposited data

Results flagged for a closer look

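For 14 results the change over time differed between Mot1-aa and WT-aa by the test of the difference itself, the depletion effect. Among the galactose genes these were GAL4 at 20 min (-0.56) and at 30 min (-0.97), and GCY1 at 30 min (0.68). Among other Gal4 targets it was PGM2 at 30 min (1.38). Among regulators of glucose repression they were NRG1 (0.79), NRG2 (0.70) and MIG2 (0.49) at 30 min. Among other glucose-repressed genes they were HXK1 (1.08), GLK1 (0.77), SIP4 (0.46), ADH2 (0.41), IDP2 (0.32), MAL11 (-0.34) and CAT8 (-0.72) at 30 min. Galactose genes were flagged at any time, but genes of the other lists at 30 min only. At 20 min PGM2 (0.76), NRG1 (0.72), NRG2 (0.77), ADH2 (0.39) and CAT8 (-0.56) passed too, against 8.09% of all genes. For HXK1, NRG1, NRG2 and MIG2 the strains also differed at 0 min, which enters these values. The part of that baseline difference in the effects was not tested.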

How the results depend on the processing

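The depletion effects of GAL4 and GCY1 at 30 min kept their direction under every alternative that held the gene. GAL4 was left out where only genes above background on every array were kept. Otherwise both kept their call under all but scaling on the external control spots (-0.76, adjusted p = 0.235, and 0.95, adjusted p = 0.252). In that scaling the median of all genes was 0.54 at 20 min and 0.27 at 30 min in the depletion effect, 0.40 and 0.36 in the Mot1-aa change, and -0.30 in the strain difference at 30 min.

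Same-numbered cultures shared their deviations (median r 0.62 over 28 pairs of groups, range -0.356 to 0.777, 25 over 0.1); the number marks dye orientation, and whether it also marks a culture shared by the times of a strain is not stated. Without this replicate block, the galactose genes called were 0 instead of 1 at 20 min and 3 instead of 5 in the strain difference at 30 min, and 2 at 30 min as before. At 20 min the count was also 0 with median centring, external control scaling, genes above background only, or spot medians, 2 with array weights, and 0 to 2 without single arrays. At 30 min it was 0 with external control scaling, 1 with genes above background only (5094 genes, which leaves out GAL4 and the enzyme genes), and 2 to 3 without single arrays. The Mot1-aa changes at 20 and at 30 min each had 1 gene instead of 2 under both of these settings (GCY1). The strain difference at 30 min had 2 with median centring, 1 with external control scaling, 3 with genes above background only, and 2 to 6 without single arrays. GAL10 at 30 min passed with offset 0 (-0.80, adjusted p = 0.0359).

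The direction of some uncalled effects at 30 min turned. GAL3 was 0.20 with external control scaling. GAL80 was 0.28 with that scaling, 0.10 with the authors' values, 0.04 with spot medians, and -0.07 to 0.05 without single arrays. POA1 was 0.09 with that scaling and -0.41 to 0.05 without single arrays. In the strain difference at 30 min GAL1 was 0.07 with median centring and GAL2 -0.06 with external control scaling. The cause was not tested.

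Of the related genes, PGM2 and CAT8 lost their call at 30 min under external control scaling alone. NRG1 and SIP4 lost it also without the replicate block and with median centring, and NRG2 and MIG2 also without the block. HXK1, ADH2, IDP2, MAL11 and GLK1 lost it under external control scaling too, ADH2, IDP2, MAL11 and GLK1 without the block, ADH2, IDP2 and MAL11 with median centring, GLK1 and MAL11 with the authors' values, and IDP2 with spot medians.

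Over all genes, calls in the depletion effect were 430 at 20 min, against 86 without the block, 244 with median centring, 0 with external control scaling, 709 with array weights and 102 to 827 without single arrays. At 30 min they were 1120, against 463, 696, 4 and, without single arrays, 536 to 2008. The Mot1-aa change at 30 min had 2225 calls, 1215 of them higher, against 786 with 784 higher under external control scaling. The strain difference at 30 min had 2610, 1321 of them higher, against 839 with 202 higher. The Mot1-aa change at 10 min had 184 against 2 to 120 under no block, median centring, that scaling or array weights, and that at 20 min 1270 against 689 without the block and 616 with that scaling. The strain difference at 0 min had 143, against 55 without the block and 4 with that scaling. Counts in WT-aa were 22, 6 and 21 at 10, 20 and 30 min, and 0 to 68 over the alternatives that keep every array. The Mot1-aa change at 30 min had 1472 without the block. The negative spots and 2 arrays per group limit what GAL1, GAL7 and GAL10 can show.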
